A study of Mus musculus and Homo sapiens with 27 samples.

Results

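The genes described here are those named for the proteasome and for the enzymes that attach or remove ubiquitin, as measured in OCI-Ly7. This human cell line comes from a diffuse large B-cell lymphoma of the germinal centre type. They were chosen by name, as every single gene symbol of the human array that starts with PSM, UBE or USP, with 1 PSM symbol left out. This gave 45 genes on 97 features, out of 4604 genes that could be named on that array. The proteasome family (PSM symbols) had 15 genes on 23 features, and the ubiquitin family had 30 genes on 74 features, 13 with UBE symbols and 17 with USP symbols. The names caught 4 genes of another kind, PSMA3-AS1 and PSME3IP1, which are no subunits, and USPL1 and USP6NL, which are no ubiquitin enzymes. Of the 45 genes 22 rested on 1 feature each.

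The proteasome is the protease that degrades proteins tagged with ubiquitin. Its barrel-shaped core, built of alpha and beta subunits, does the cutting, and a regulatory particle binds the tagged protein, takes the tag off and feeds the chain in. Ubiquitin is passed from an activating enzyme (E1) to a conjugating enzyme (E2) and, with a ligase (E3), to the target, while ubiquitin-specific proteases (USP) take it off again. In B cells the system degrades cell cycle regulators and inhibitors of NF-kB, cuts antigens for presentation, and disposes of misfolded immunoglobulin chains returned from the endoplasmic reticulum, a load that grows as cells turn to antibody secretion.

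Each of the 4 human arrays compared, on 2 dyes, RNA of OCI-Ly7 cells that expressed human IRF4 from the vector Vxy (Cy5) with RNA of OCI-Ly7 cells carrying the empty vector, labelled Vxypuro (Cy3). IRF4 is the transcription factor whose dose the series studies in B-cell differentiation. There was 1 array at day 2, 2 at day 3 (repeat 1 and repeat 2) and 1 at day 5; the other 23 arrays of the series are of mouse B cells and were not used here. For the control, the series' design says non-transduced where the labels give the empty vector, which was followed. The design also speaks of biological repeats, but day 2 and day 5 have 1 array each and the labels do not say which arrays came from separate cultures or whether the lines were clones. The p-values below thus measure the spread between these 4 arrays, which may be technical.

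Values are log2 ratios of the channels, centred on each array's median over all features, so 0 stands for a gene at the array's median. IRF4 vector (Cy5) over empty vector (Cy3) was taken as the direction from the dyes in the labels, which do not state it. If it ran the other way every sign below would turn, while the sizes would stay. IRF4 itself did not settle it. Of its 4 features 1 lay above the array median on every array, at 0.60, 0.64, 0.86 and 0.67 at day 2, day 3 repeat 1, day 3 repeat 2 and day 5. The other 3 features lay above it on day 3 repeat 1, at 0.585 to 0.77, and below it on the 3 other arrays, at -0.03 to -0.92. The mean of the IRF4 features was -0.03 ± 0.47 (SD, n = 4; limma adjusted p = 0.964).

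The 4 arrays had deposited medians of -0.26 to -0.08 and standard deviations of 1.25 to 2.04, the widest at day 5. They correlated with each other at 0.31 to 0.46 over all features, with day 3 repeat 1 in the 2 lowest of the 6 values. Ratios between 2 channels of the same line hold no level, so the identity of the cells could not be checked on markers. Among 5 measured plasma cell genes 4 lay above the array median on all 4 arrays, with a median of 1.83. Of 6 B-cell genes 2 lay above and 3 below on all 4, with a median of -0.71. Genes of other cell types had medians below 0 too, at -0.55 for 7 T and NK genes and -0.68 for 5 myeloid genes. The median of 4 germinal centre B genes was -0.28. On all 4 arrays 17% of all genes lay above the array median and 21% below. The part of the marker genes in the values below was not tested.

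Of the 45 genes 0 passed the threshold of an adjusted p of 0.05 by limma, against 0.109% of all genes (5 of 4604), 0.0434% higher and 0.0652% lower. At an unadjusted p of 0.05 there were 8 of the 45, 3 above and 5 below the median, against 23.9% of all genes, 7.91% above and 16% below. The 3 above were the proteasome genes PSME1, PSMB7 and PSMD14, and the 5 below were PSMB1, UBE2S, UBE3B, USP8 and USP54. The count of 8 was 12 without day 3 repeat 1, 3 without day 3 repeat 2, 4 without day 2 and 7 without day 5, with 0 past the adjusted threshold each time. The share of all genes was not counted in these runs. Their counts thus show how far the number depends on single arrays and nothing particular to the members. The values below are therefore given with their spread and not as changes. In RNA of whole cultures, fewer cells of a kind and less RNA per cell cannot be told apart.

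The proteasome family lay above the ubiquitin family on each of the 4 arrays. The median of the 15 proteasome genes was 0.12 at day 2, 1.10 on day 3 repeat 1, 0.12 on day 3 repeat 2 and 0.28 at day 5. That of the 30 ubiquitin genes was -0.02, 0.13, -0.19 and 0.04 on the same arrays. The gap was widest on day 3 repeat 1 and narrowest at day 2. The difference of the medians was 0.14, 0.96, 0.31 and 0.24, a mean of 0.41 ± 0.37 (SD, n = 4), which was 0.23 without day 3 repeat 1. The median of all 4604 genes was -0.11, -0.04, -0.07 and -0.19, so the proteasome family lay above all genes on each array too, by a mean of 0.51 ± 0.44 (SD, n = 4), which was 0.30 without day 3 repeat 1. The ubiquitin family lay 0.09 ± 0.16 (SD, n = 4) above all genes, and below them on day 3 repeat 2. The SD of each difference is close to or above its mean, and no test of it was made because the genes share their arrays and were chosen by name.

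**Figure D1:**
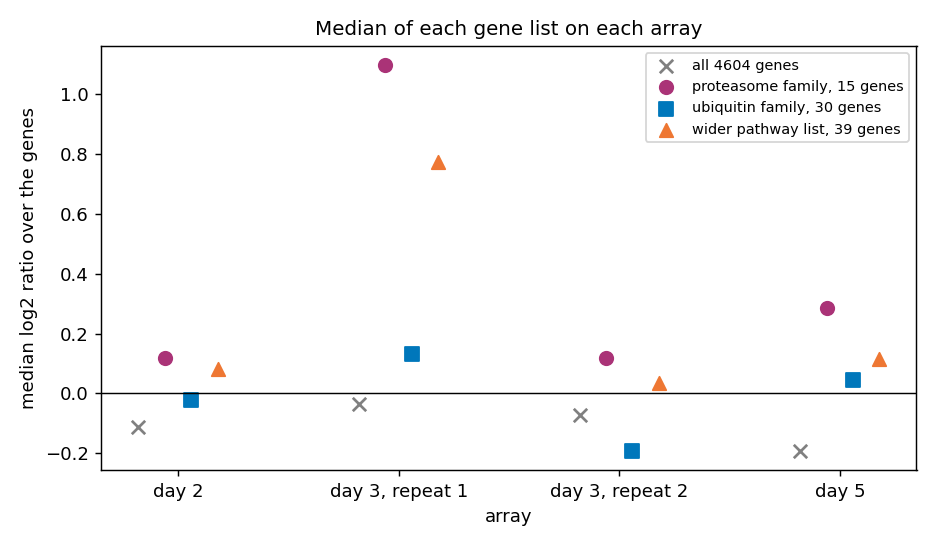
Median log2 ratio (y axis, Cy5 over Cy3) on each of the 4 OCI-Ly7 arrays (x axis) over all 4604 genes, the 15 proteasome genes, the 30 ubiquitin genes and the 39 measured genes of a wider pathway list. The proteasome median is above the ubiquitin median on all 4 arrays and reaches 1.10 on day 3 repeat 1.

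By gene means over the 4 arrays, 11 of 15 proteasome genes lay above the array median and 4 below, with a family median of 0.36. That median is the value of PSMA3-AS1, and PSMA3-AS1 or PSME3IP1 also sat at the family's median on each array other than day 3 repeat 1. Without the 4 symbols of another kind the difference of the families on the 4 arrays was 0.24, 1.04, 0.15 and 0.20, a mean of 0.41 ± 0.42 (SD, n = 4), or 0.20 without day 3 repeat 1. A stricter proteasome list of the 9 core and lid subunits had a median of 0.75, with 5 means above the array median and 4 below, and 27 ubiquitin genes (without UBE2L6, USPL1 and USP6NL) had -0.01. Their difference by gene means was 0.76. The stricter proteasome median is the value of PSMD14, and the next mean below it is that of PSMD3, at -0.04. On the 4 arrays the difference of the stricter lists was 0.55, 0.94, 0.32 and 0.19. Its mean was 0.50 ± 0.33 (SD, n = 4), or 0.35 without day 3 repeat 1. Of the ubiquitin genes 14 of 30 lay above and 16 below, with a median of -0.01, and of all genes 43.3% lay above, with a median of -0.14. On all 4 arrays 7 of 15 proteasome genes (46.7%) and 7 of 30 ubiquitin genes (23.3%) were above the median, against 17% of all genes. Below it on all 4 arrays were 2 proteasome genes and 6 ubiquitin genes (20% of the latter), against 21% of all genes. Counted by single features, 11 of 23 proteasome features (47.8%) and 14 of 74 ubiquitin features (18.9%) were above on all 4 arrays, against 19.6% of all features; 2 (8.7%) and 11 (14.9%) were below on all 4, against 18.5%.

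Day 3 repeat 1 stood apart in the proteasome family. It held the highest of the 4 values in 11 of 15 proteasome genes (73.3%), in 13 of 30 ubiquitin genes (43.3%) and in 42.1% of all genes. Without it the median of gene means was 0.35 in the proteasome family and -0.09 in the ubiquitin family, with all genes at -0.21. Means above the array median then numbered 9 of 15 and 12 of 30, against 1844 of 4604 over all genes. On the remaining 3 arrays 8 of 15 proteasome genes (53.3%) and 8 of 30 ubiquitin genes (26.7%) were above the median throughout, against 23.5% of all genes. The titles also carry numbers of the authors' database, which fall into 2 ranges: day 3 repeat 1 with day 5, and day 3 repeat 2 with day 2. The proteasome minus ubiquitin difference averaged 0.60 in the range of day 3 repeat 1 and 0.23 in the other.

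Most measured subunits of the core particle lay above the median. PSMA7, an alpha subunit, was the only alpha gene among them, at 0.54 at day 2, 1.94 and 0.24 on the day 3 arrays (repeat 1 first, here and below) and 0.29 at day 5, a mean of 0.75 ± 0.80 (SD, n = 4; adjusted p = 0.261). PSMB6, which gives the core its caspase-like cutting site, had 0.49 at day 2, 2.27 and 0.14 at day 3 and 0.59 at day 5 (0.87 ± 0.95; adjusted p = 0.246). PSMB7, which carries the trypsin-like site, had 0.84, 1.38 and 0.48, and 0.39 (0.77 ± 0.45; unadjusted p = 0.0374 by limma, adjusted p = 0.190). For these genes all 4 arrays were on the same side, and day 3 repeat 1 was the highest.

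PSMB4, a structural beta subunit, had 0.58 at day 2, 2.17 and 0.38 at day 3 and 0.25 at day 5 (0.84 ± 0.89; adjusted p = 0.246). Without day 3 repeat 1 the means of PSMA7, PSMB4, PSMB6 and PSMB7 were 0.36, 0.40, 0.41 and 0.57, still above the median on each remaining array. Each of these 4 genes rests on 1 feature.

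PSMB1 and PSMB10, the other beta subunits among the genes kept here, lay on the opposite side. PSMB1, a structural beta subunit that every proteasome holds, had -0.35 at day 2, -0.61 and -2.07 at day 3 and -4.11 at day 5, a mean of -1.78 ± 1.72 (SD, n = 4; unadjusted p = 0.0332 by limma, adjusted p = 0.183). All 4 arrays were below the median on its single feature. The day 5 value was the lowest, and without it the mean was -1.01.

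PSMB10 is the interferon-inducible subunit that takes the place of PSMB7 in the immunoproteasome, the form that favours peptides for presentation. It had -0.58 at day 2, -0.06 and -1.55 at day 3 and -0.83 at day 5 (-0.76 ± 0.62, SD, n = 4; adjusted p = 0.222). PSMB7 lay above PSMB10 on every array, by 1.43 at day 2, 1.44 and 2.03 at day 3 and 1.22 at day 5, a mean of 1.53 ± 0.35 (SD, n = 4). This pair was singled out after its values were seen, so the difference was not tested. The 3 features of PSMB10 had unlike means of -0.68, -0.01 and -1.58, and of these the last alone was below the median on all 4 arrays.

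**Figure D2:**
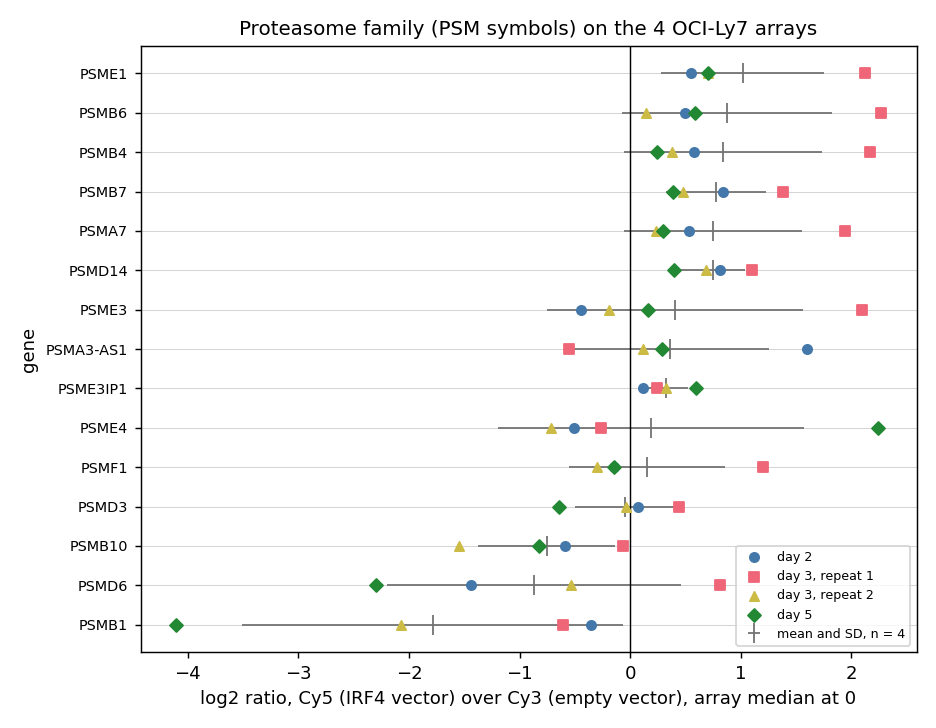
Log2 ratio (x axis, Cy5 over Cy3, array median at 0) of the 15 proteasome genes (y axis, ordered by mean) on the 4 OCI-Ly7 arrays; symbols are arrays, the grey tick is the mean and the grey line the SD (n = 4). Day 3 repeat 1 lies to the right in most genes, and PSMB1 reaches -4.11 at day 5.

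The regulatory particle had 3 genes, all of its lid. PSMD14, the subunit that removes ubiquitin from the bound protein, had the smallest SD of the proteasome genes after PSME3IP1, at 0.81 at day 2, 1.10 and 0.69 at day 3 and 0.40 at day 5, a mean of 0.75 ± 0.29 (SD, n = 4; 95% interval 0.10 to 1.40; unadjusted p = 0.0298 by limma, adjusted p = 0.179). Both of its features lay above the median on all 4 arrays, with means of 1.03 and 0.47. PSMD3 had 0.07, 0.44, -0.04 and -0.65 in the same order of arrays, on both sides of the median. PSMD6 had -1.44 at day 2, 0.81 and -0.54 at day 3 and -2.30 at day 5 (-0.87 ± 1.33, SD, n = 4; adjusted p = 0.335), with day 3 repeat 1 alone above the median.

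Among the activators, which cap the core in place of the regulatory particle, PSME1 had the highest mean of all 45 genes. PSME1, a subunit of the interferon-inducible activator, had 0.55 at day 2, 2.12 and 0.70 at day 3 and 0.70 at day 5. Its mean was 1.02 ± 0.74 (SD, n = 4), a 2.03-fold ratio with a 95% interval of 0.15 to 1.89 on the log2 scale (unadjusted p = 0.0283 by limma, adjusted p = 0.176). Each of its 3 features lay above the median on all 4 arrays, with means of 1.18, 1.18 and 0.69. Without day 3 repeat 1 the mean was 0.65. Of the PSM genes kept here, PSME1 and PSMB10 belong to the interferon-inducible part of the proteasome. By their gene means they lay on opposite sides of the median, though 1 feature of PSMB10 had a mean of -0.01.

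PSME3, the nuclear activator, had -0.44 at day 2, 2.10 and -0.19 at day 3 and 0.16 at day 5, so its mean of 0.41 ± 1.16 (SD, n = 4) came from day 3 repeat 1, without which it was -0.16. PSME4, a large single-chain activator, was below the median on 3 arrays (-0.27 to -0.71) and at 2.25 at day 5. PSMF1, an inhibitor of the core, had -0.15 at day 2, 1.20 and -0.30 at day 3 and -0.15 at day 5; its mean of 0.15 ± 0.70 (SD, n = 4) turned to -0.20 without day 3 repeat 1 and to -0.041 without centring. The remaining PSM symbols name no subunit. PSME3IP1, a protein that binds PSME3, was above the median on all 4 arrays, at 0.12 to 0.60. PSMA3-AS1, an RNA antisense to PSMA3, had 1.60 at day 2, -0.55 and 0.12 at day 3 and 0.28 at day 5; strand is not resolved on such an array, so its feature may also bind the sense RNA.

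In the ubiquitin family the E2 enzymes had 9 genes, 3 with means above the median and 6 below. UBE2A and UBE2B are the near-identical human versions of the yeast DNA repair E2 RAD6. By the mean of their features both lay above the median on all 4 arrays. Single features differed: 1 of UBE2A was at -0.12 on day 3 repeat 2 and -0.26 at day 5, and 1 of UBE2B was below the median on every array. UBE2A had 0.35 at day 2, 1.37 and 0.11 at day 3 and 0.03 at day 5 (0.46 ± 0.62, SD, n = 4; adjusted p = 0.393), and UBE2B 0.42, 0.57 and 0.28, and 0.02 (0.32 ± 0.23, SD, n = 4; adjusted p = 0.444). Features of such close paralogs may share RNA, which was not tested, and without day 3 repeat 1 the mean of UBE2A was 0.16.

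UBE2C and UBE2S are the pair of E2 enzymes that the anaphase-promoting complex uses in mitosis to start and to extend ubiquitin chains. UBE2S was below the median on all 4 arrays, at -0.59 at day 2, -0.18 and -0.81 at day 3 and -1.32 at day 5 (-0.73 ± 0.47, SD, n = 4; unadjusted p = 0.0493 by limma, adjusted p = 0.208). Its 3 features had means of -1.18, -0.61 and -0.39, the first below the median on all 4 arrays and the others on 3. UBE2C had -2.25 at day 2, 0.17 and -0.37 at day 3 and -1.90 at day 5 (-1.09 ± 1.17, SD, n = 4; adjusted p = 0.224). That mean came from 1 of its 3 features, at -6.28 at day 2 and -4.93 at day 5, while the other two had means of -0.01 and 0.13, and with the median of the features UBE2C lay at -0.01.

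UBE2J1 is the membrane-bound E2 of the endoplasmic reticulum that tags misfolded secretory proteins for disposal. It had 0.51 at day 2, 1.21 and 0.16 at day 3 and -1.33 at day 5 (0.14 ± 1.07, SD, n = 4; adjusted p = 0.856). Of its 4 features 3 had means of 0.38, 0.93 and 1.11 and the remaining one -1.87, with -5.46 at day 5. With the median of the features UBE2J1 lay at 0.60 (adjusted p = 0.340), and the gene value was -0.22 without day 3 repeat 1 and -0.056 without centring.

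UBE2L6, the E2 of the interferon-induced modifier ISG15, was below the median on all 4 arrays, at -0.52 at day 2, -0.04 and -0.58 at day 3 and -1.19 at day 5 (-0.58 ± 0.47, SD, n = 4; adjusted p = 0.268). UBE2H, with 6 features, had values of -0.34 to 0.16 and a mean of -0.02. UBE2V1, an inactive E2 variant that works with a catalytic partner, had -0.47 to 0.21 and a mean of -0.01. UBE2Z, which takes its ubiquitin from a second E1, had 1.29 on day 3 repeat 1 and -0.07 to -0.69 elsewhere.

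Of the 4 ligase genes, UBE3B, a HECT-type E3, was below the median on all 4 arrays. It had -2.20 at day 2, -0.44 and -0.21 at day 3 and -2.31 at day 5, a mean of -1.29 ± 1.12 (SD, n = 4), a ratio 2.45-fold below the array median (unadjusted p = 0.0310 by limma, adjusted p = 0.181). The 3 features had means of -0.96, -1.42 and -1.49, of which the second alone was below the median on all 4 arrays, and the low values were those of day 2 and day 5. UBE3C, a related HECT ligase, had -0.82 at day 2, 0.20 and -0.97 at day 3 and 1.51 at day 5, with a mean of -0.02. UBE4A, a U-box ligase, lay between -0.04 and 0.08 on all 4 arrays, and UBE4B, its relative, had 0.45, -0.45, 0.98 and 1.46 (0.61 ± 0.82, SD, n = 4; adjusted p = 0.340).

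The 15 ubiquitin-specific proteases held both the lowest and the highest mean of the ubiquitin family. Of their means 8 lay above the array median and 7 below, with a median of 0.04. USP54, which rests on 1 feature, had the lowest mean of all 45 genes. It was at -2.46 at day 2, -1.42 and -1.41 at day 3 and -4.83 at day 5. Its mean was -2.53 ± 1.61 (SD, n = 4), a ratio 5.78-fold below the array median with a 95% interval of -4.03 to -1.03 on the log2 scale (unadjusted p = 0.00602 by limma, adjusted p = 0.130). USP8, which acts on receptors at endosomes, had -1.16 at day 2, -1.42 and -0.96 at day 3 and -3.30 at day 5 (-1.71 ± 1.08, SD, n = 4; unadjusted p = 0.00878 by limma, adjusted p = 0.137). Both of its features lay below the median on all 4 arrays, with means of -0.91 and -2.51. For both genes the day 5 value was the lowest, and without it the means were -1.77 for USP54 and -1.18 for USP8. After quantile normalization both passed the threshold, as given in the closing section.

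At the other end, USP7, which removes ubiquitin from MDM2 and p53, had the highest mean of the ubiquitin family, at -0.06 at day 2, 1.01 and 0.56 at day 3 and 1.03 at day 5 (0.63 ± 0.51, SD, n = 4; adjusted p = 0.250). Its 3 features had means of 0.53 to 0.81. USP47 was steadier, at 0.61, 0.47, 0.60 and 0.63 (0.58 ± 0.07, SD, n = 4; 95% interval -0.02 to 1.18; adjusted p = 0.217). USP1, which acts in the Fanconi DNA repair pathway, had 0.40 at day 2, 1.25 and 0.32 at day 3 and -0.01 at day 5 (0.49 ± 0.54, SD, n = 4; adjusted p = 0.351). Both USP1 features had like means, 0.51 and 0.47, and without day 3 repeat 1 USP1 was at 0.24.

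USP6, a hominoid gene, was above the median on all 4 arrays at 0.12 to 0.72 (mean 0.35; adjusted p = 0.421). USP9X, an X-linked protease that stabilises MCL1, lay at 0.16 to 0.28 on all 4 arrays over 5 features, with the smallest SD of the family, 0.05. Its features were less steady than their mean, with feature means of -0.09 to 0.71. USP15 was at 0.02 to 0.69. Near the median on average were USP33 (0.06), USP24 (0.04) and USP34 (-0.11), each with arrays on both sides.

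USP22, the deubiquitinase of the SAGA coactivator, was below the median on all 4 arrays, at -0.43, -0.91, -0.35 and -0.56 (-0.56 ± 0.25, SD, n = 4; adjusted p = 0.240). USP12, USP25 and USP48 were below it on 3 arrays and above it at day 5. USP12 ran from -3.39 at day 2 to 1.41 at day 5 (-0.79 ± 2.01, SD, n = 4), the widest spread of the family. USP25 had -2.51 at day 2 and 0.06 at day 5 (mean -0.91; adjusted p = 0.266). USP48 had -1.84 at day 2, -0.99 and -2.43 at day 3 and 0.94 at day 5 (mean -1.08; adjusted p = 0.281), with feature means of 0.03 and -2.19. The remaining USP symbols name no ubiquitin protease. USPL1, a protease of the modifier SUMO, lay at 0.02 to 0.43 on all 4 arrays, with a mean of 0.19 that was -0.0041 without centring, and USP6NL, a GTPase-activating protein, at -0.95 to 0.38.

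**Figure D3:**
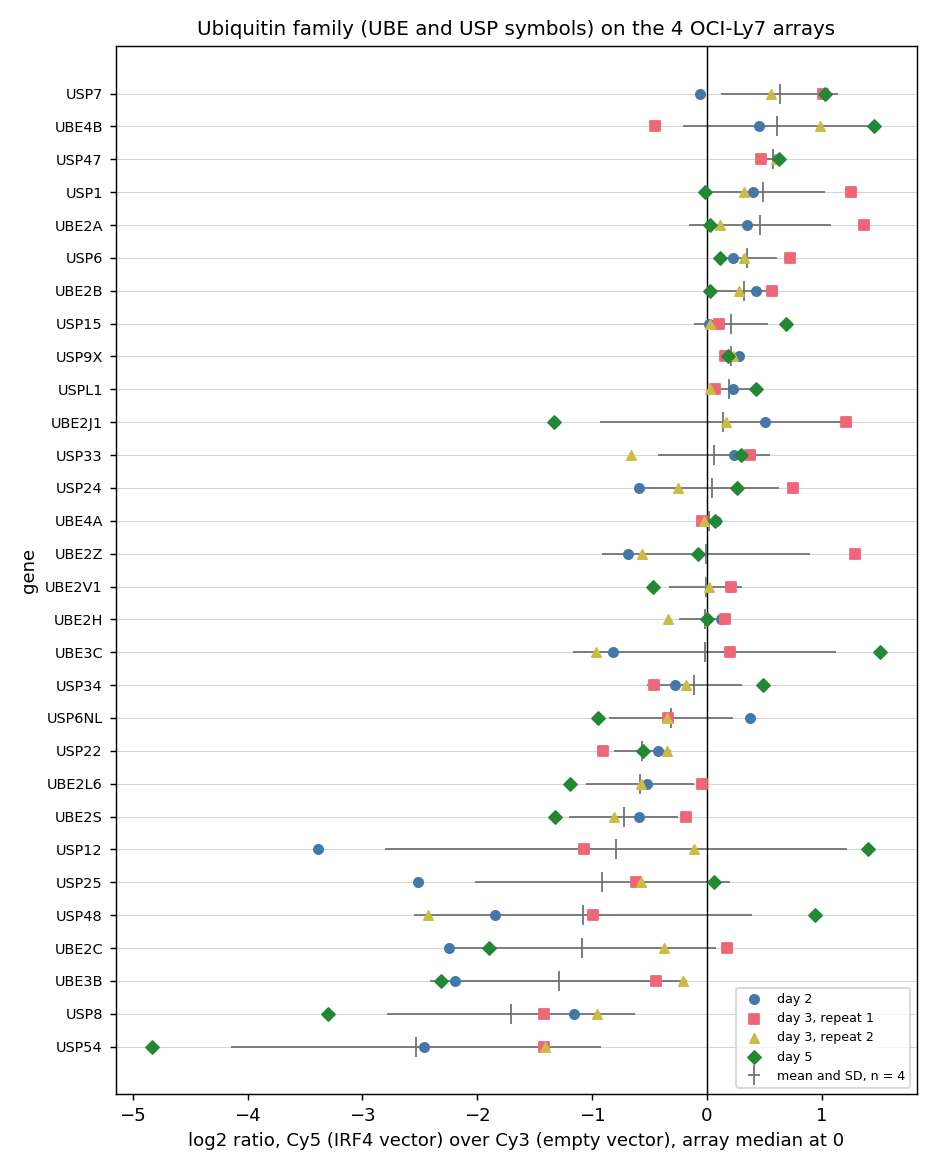
Log2 ratio (x axis, Cy5 over Cy3, array median at 0) of the 30 ubiquitin genes (y axis, ordered by mean) on the 4 OCI-Ly7 arrays; symbols are arrays, the grey tick is the mean and the grey line the SD (n = 4). USP9X, USP47 and UBE4A have tight values, and USP54 and USP8 lie below 0 on all 4 arrays.

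The spread over arrays differed widely between genes. The median SD was 0.80 in the proteasome family, 0.52 in the ubiquitin family and 0.69 over all genes. The median half-width of the 95% interval was 0.91, 0.75 and 0.84 log2 units, before any adjustment for the number of genes tested. Of the 45 genes 14 had a mean that turned its sign when 1 of the 4 arrays was left out, 13 of them with a mean within 0.5 of the array median; the other was USP12, at 0.07 without day 2. The lowest of the 4 values fell on day 5 in 6 of 15 proteasome genes (40%) and 12 of 30 ubiquitin genes (40%), against 36.5% of all genes.

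Features of the same gene often disagreed. Of the 23 members with more than 1 feature, 11 (47.8%) had all feature means on the same side of the array median, against 46% of the 2674 such genes on the array. Where 3 or more features were present, their means spanned over 1 log2 unit in PSMB10, UBE2B, UBE2C, UBE2J1, USP6NL and USPL1. UBE2B had 4 features at 0.58 to 1.02 and 2 at -0.92 and -0.24. USPL1 had 5 at 0.19 to 0.69 and 1 at -1.07, and USP6NL had 2 at 0.06 and 0.23 and 1 at -1.23. In UBE2C, UBE2J1, USP6NL and USPL1 a single feature, the lowest, lay apart from the others.

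**Figure D4:**
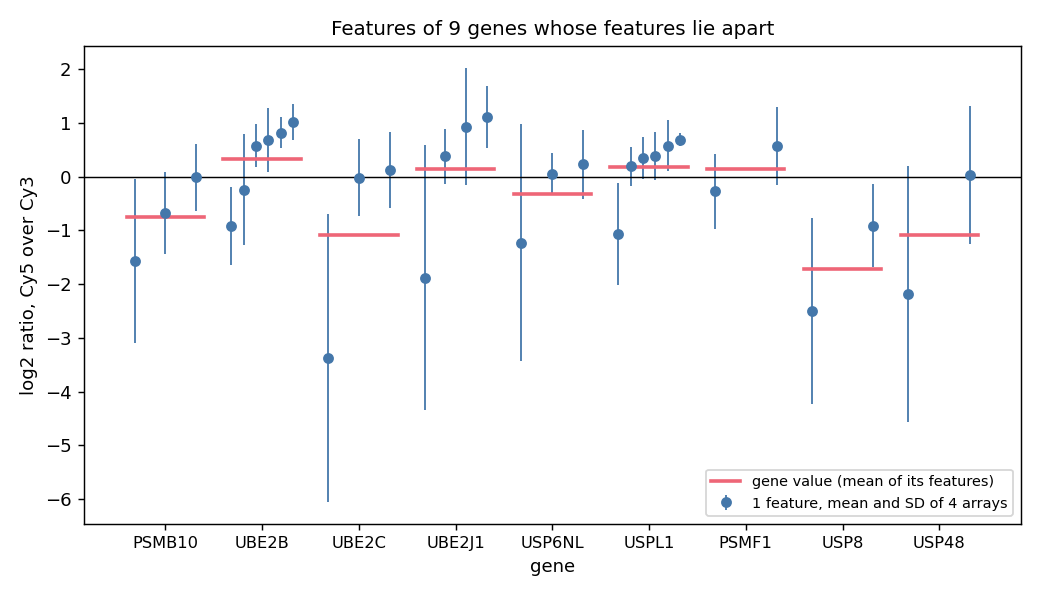
Log2 ratio (y axis, Cy5 over Cy3) of each feature (blue, mean and SD of 4 arrays) of 9 genes (x axis), with the gene value used in the tests as a red line. PSMB10, UBE2B, UBE2C, UBE2J1, USP6NL and USPL1 have 3 or more features that span over 1 log2 unit; PSMF1, USP8 and USP48 were added after their values were seen.

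A wider list held 93 symbols for other genes of ubiquitin-dependent degradation. They were matched as written, so a gene on the array under another symbol was missed. Of the 93 symbols 39 matched a gene of the array. Of these 0 passed the threshold by limma, 9 had an unadjusted p of under 0.05 (6 above and 3 below the median, against 23.9% of all genes), and 23 had means above the median and 16 below, with a list median of 0.34. On all 4 arrays 11 were above the median (28.2%, against 17% of all genes) and 6 below (15.4%, against 21%). Its medians were 0.08 at day 2, 0.77 and 0.03 at day 3 and 0.11 at day 5, so day 3 repeat 1 was the highest here too.

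UCHL3, a small deubiquitinase, had the highest mean, with 0.84 at day 2, 1.45 and 0.41 at day 3 and 1.49 at day 5 (1.05 ± 0.52, SD, n = 4; adjusted p = 0.148). RBX1, the RING subunit of cullin ligases, was next at 0.75, 1.84 and 0.96, and 0.61 (1.04 ± 0.55, SD, n = 4; adjusted p = 0.155), and ARIH2, a ligase that works with cullins, had 2.24, -0.01 and 0.99, and 0.70 (mean 0.98, or 0.56 without day 2; adjusted p = 0.212). BTRC, the ligase adaptor that marks the NF-kB inhibitor IkB, had the lowest mean, with -2.73 at day 2, -0.33 and -1.66 at day 3 and -3.18 at day 5 (-1.97 ± 1.27, SD, n = 4; adjusted p = 0.134). MDM2, the ligase of p53, was below the median on all 4 arrays at -1.49, -0.78 and -2.66, and -2.14 (-1.76 ± 0.81, SD, n = 4; adjusted p = 0.130). CBL, a ligase of tyrosine kinase signalling, ran from 0.18 at day 2 to -4.37 at day 5 (mean -1.84, or -0.998 without day 5; adjusted p = 0.208).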

How the data were processed

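The authors deposited 1 log2 ratio of Cy5 and Cy3 for each of 15246 features of a human array (0 missing values). The values' range fits base 2, which the sources used here do not state. They also leave unstated the scanner, the background correction, the normalization and any centring by the authors. The number of arrays, not a depth, limits the precision. The platform annotation named 10169 features with 1 symbol, 4 with several and 5073 with none.

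The median of all features of an array was subtracted from it. Features with 1 symbol were averaged by symbol into 4604 genes, 2674 with more than 1 feature; no filter on low values was applied, so all 45 members were tested. The mean of the 4 arrays was tested against 0 with limma 3.58.1 in R 4.3.3 (lmFit and eBayes, 2-sided), adjusted by Benjamini and Hochberg over all 4604 genes at a threshold of 0.05. Dyes were not swapped, so dye bias and vector cannot be told apart, and the control's own spread is left out. The fit was also run on simulated data, with results not reported here. That run does not show that a gene short of the threshold was unchanged.

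Genes named in full were the 5 highest and 5 lowest means of each family, the 3 smallest p-values in each direction among genes on 1 side on all arrays, genes with 3 or more features spanning over 1 log2 unit, and the 3 highest and 3 lowest of the wider list; the other members are given by role. The members and lists were chosen with earlier results of these data known. Alternatives covered centring, scaling, quantile normalization, the median of features, values beyond 6 log2 units set to missing, array weights, a robust prior, the database range as a block, single features, other lists and leaving out each array. Mouse arrays were not used.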

Additional observations from a re-analysis of the deposited data

Results flagged for a closer look

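Among 39 sets of 4 array values tested for a far value by Dixon's ratio, 5 had one, and each was day 3 repeat 1; chance gives about 1 in 20, and these sets share arrays. They were PSME1 at 2.12, PSMF1 at 1.20, the median of the proteasome family at 1.10 and 2 of the 4 IRF4 features at 0.77 and 0.585. In each, day 3 repeat 1 was the highest of the 4 arrays. The cause was not tested.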

How the results depend on the processing

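None of the 45 genes passed under any alternative run, except USP54 (-2.61, adjusted p = 0.0312) and USP8 (-1.88, adjusted p = 0.0482) after quantile normalization, so 2 passed there. By limma 5 of all genes passed (2 higher, 3 lower); the count was 94 after quantile normalization (21 higher, 73 lower), 262 with array weights, 1 with arrays centred on the named features, without centring or with the median of features, 0 with the database range as a block or over single features, and 0 to 1 without each array in turn. With array weights 2 genes of the wider list passed, MDM2 (-2.15, adjusted p = 0.0303) and BTRC (-1.99, adjusted p = 0.0405). The proteasome minus ubiquitin difference of gene means, 0.37, was 0.36 to 0.51 in all but the stricter lists, where it was 0.76. The centring, the robust prior and the database range as a block cannot move this difference, so those runs do not test it. Without day 3 repeat 1 it was 0.44, while the mean of the differences on single arrays went from 0.41 to 0.23. For the stricter lists that mean was 0.50. Without centring, which moved the median of all genes from -0.14 to -0.33, the proteasome median went from 0.36 to 0.17 and the ubiquitin median from -0.01 to -0.20. With array weights they were 0.29 and -0.18. Among the genes given in full, signs turned for PSMF1 (-0.041 without centring, -0.13 with array weights, -0.20 to 0.30 without each array in turn, -0.27 on its feature 2), UBE2J1 (-0.056 without centring, -0.22 to 0.63 without each array, -1.87 on its feature 3), USPL1 (-0.0041 without centring, -1.07 on its feature 6), USP6NL (0.032 with the median of features, 0.056 and 0.23 on its features 2 and 3), PSMD3 (0.16 without day 5), USP48 (0.026 on its feature 1), UBE2C (0.13 on its feature 3) and UBE2B (-0.92 and -0.24 on its features 5 and 6). Of the other members, leaving out 1 array turned PSMA3-AS1, PSME3, PSME4, UBE2H, UBE2V1, UBE2Z, UBE3C, USP12, USP24, USP33 and USP34. The lists without the 4 symbols that name no subunit or enzyme, and the medians over single features, were added after seeing the data. The cause of these shifts was not tested. No paired analysis was possible because all 4 human arrays form 1 group and each already holds its control. Channel signals were not analysed here, so signal over background could not be checked.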

Other observations

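Within the wider list, genes of the same complex did not all lie on the same side. Of the cullins, the scaffolds of the largest ligase family, CUL2 (0.79), CUL3 (0.50) and CUL4B (0.34) had means above the array median and CUL5 (-1.57) below, with CUL5 at -4.51 at day 5. Of the COP9 signalosome, which switches cullins off, COPS4 (0.71), COPS5 (0.64) and COPS3 (0.39) lay above and COPS2 (-0.57) below. Of the anaphase-promoting complex and its activator, ANAPC2 had 0.60, ANAPC7 0.14, CDC27 -0.12, CDC20 -0.14 and CDC16 -0.15, while its E2 enzymes UBE2S and UBE2C had -0.73 and -1.09, the latter set by 1 of 3 features and -0.01 with the median of features. None of these passed the threshold by limma. These groups were picked after their values were seen.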
